A study of Mus musculus with 8 samples.

Results

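The Dlk1-Dio3 imprinted cluster was followed on miRNA arrays of brown adipose tissue, the heat-producing fat of mice, through 53 listed mature miRNAs that were taken by their exact names among the 566 mouse miRNAs on the array. All 53 were present. RNA came from 6 male C57Bl6N mice aged 8 weeks. The cold group was 3 mice held at 8 °C for 24 h (mice 1, 2 and 3), and the control group was 3 mice kept at room temperature, 21 °C (mice 4, 5 and 6). Mouse 1 and mouse 4 were each hybridised to 2 arrays, so that each group had 4 arrays, and the arrays of a mouse were averaged to give n = 3 mice a group. All cold arrays lay in 1 row of the only slide and all room temperature arrays in the other, so row and group cannot be told apart. The samples were whole tissue, in which fewer cells of a type and less RNA per cell cannot be told apart.

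The cluster lies on mouse chromosome 12 between Dlk1, which encodes the preadipocyte factor Pref-1, and Dio3, which encodes the deiodinase that inactivates thyroid hormone. Dlk1, Rtl1 and Dio3 are expressed mainly from the paternal copy. The non-coding RNAs Meg3, Rian and Mirg, with the miRNA hairpins in and around them, are expressed from the maternal copy. The miRNAs that lie antisense to Rtl1, miR-127, miR-136, miR-431, miR-433 and miR-434 among them, pair fully with its mRNA and direct its cleavage. The long miR-379 to miR-410 array further along is best known from the brain and the placenta, where miR-134, miR-329 and their neighbours act in dendrite growth.

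The 53 miRNAs come from 44 hairpin genes, all of which were found by symbol in RefSeq's gene table of the assembly GRCm38.p6, in the order used here. Mir770 lay within the span of Meg3, 10 hairpins from Mir673 to Mir136 within that of Rtl1, Mir341 and Mir370 within that of Rian, and the last 8, from Mir154 to Mir410, within that of Mirg. For this account the locus was split into 4 stretches: Mir770 to Mir665, Mir431 to Mir136 (the hairpins usually called the Rtl1 antisense group), Mir341 with Mir370, and Mir379 to Mir410. All of the first stretch but Mir770 also lies within the span that RefSeq gives Rtl1. Mature sequences from RefSeq (GRCm38.p6) were matched for 50 of the 53, with old array names assigned to the current arm names. A miRNA recognises its targets mainly through its seed, bases 2 to 8 from its 5′ end. No seed was shared between any of these 50 sequences, so the cluster's members are neighbours and not a seed family. The sequences below are those of the 13 tested miRNAs with a match, shown because the cold comparison rests on them, with the seed in capitals.
miR-337-5p: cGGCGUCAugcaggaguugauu
miR-127: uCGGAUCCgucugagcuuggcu
miR-434-3p: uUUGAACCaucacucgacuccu
miR-136: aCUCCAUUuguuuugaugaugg
miR-379: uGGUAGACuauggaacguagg
miR-411: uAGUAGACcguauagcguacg
miR-329: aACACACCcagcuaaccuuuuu
miR-494: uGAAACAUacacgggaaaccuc
miR-495: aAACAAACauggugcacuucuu
miR-300: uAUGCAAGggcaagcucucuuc
miR-154: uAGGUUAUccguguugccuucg
miR-377: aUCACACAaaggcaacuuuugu
miR-410: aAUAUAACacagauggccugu

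Some members are close in sequence although their seeds differ, which matters on an array because a probe reads by base pairing. Aligned from base 1 without gaps, 4 of the 1225 pairs of members were identical at over 70% of bases. The closest pair, mmu-miR-300 and mmu-miR-381, had the same base at 19 of 22 positions (86.4%). For mmu-miR-495 and mmu-miR-543 it was 18 of 22 (81.8%), and for mmu-miR-376a and mmu-miR-376b 18 of 21 (85.7%). For mmu-miR-411* and mmu-miR-758 it was 15 of 19 (78.9%). Except for this last pair, the partners are printed here, seed in capitals, so that they can be set beside the detected member of each pair.
miR-381: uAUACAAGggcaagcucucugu
miR-543: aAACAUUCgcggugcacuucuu
miR-376a: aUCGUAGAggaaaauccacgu
miR-376b: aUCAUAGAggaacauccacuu
In each pair 1 member was detected and its partner was not. miR-300 was well above background on all 8 arrays while the brightest miR-381 probe gave 0.782 to 4.03 signal units over the 6 mice. miR-495 was above background on 7 arrays and miR-543 on none, at 1.38 to 4.74 units. miR-376a was above background on 6 arrays and miR-376b on none, at 2.79 to 6.84 units. miR-411* was above background on 2 arrays and miR-758 on none, at −1.60 to 0.135 units. Whether any signal came from a related miRNA was not tested.

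Only a part of the cluster was detected in brown fat. A miRNA was counted as well above background on an array when more than 0.5 of the spots of at least 1 of its probes carried the scanner software's mark for that. On this count 20 of the 53 (37.7%) were above background on at least 1 array and 10 (18.9%) on all 8. Over all 566 mouse miRNAs the shares were 40.8% and 28.1%. The 10 were miR-337-5p, miR-127, miR-434-3p, miR-136, miR-379, miR-329, miR-494, miR-376c, miR-300 and miR-377. They fell in separate stretches of the locus: 1 of the 10 members of the Mir770 to Mir665 stretch, 3 of the 6 of the Rtl1 antisense group and 6 of the 35 of the miR-379 to miR-410 array. Neither miR-341 nor miR-370 was above background throughout.

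**Figure D1:**
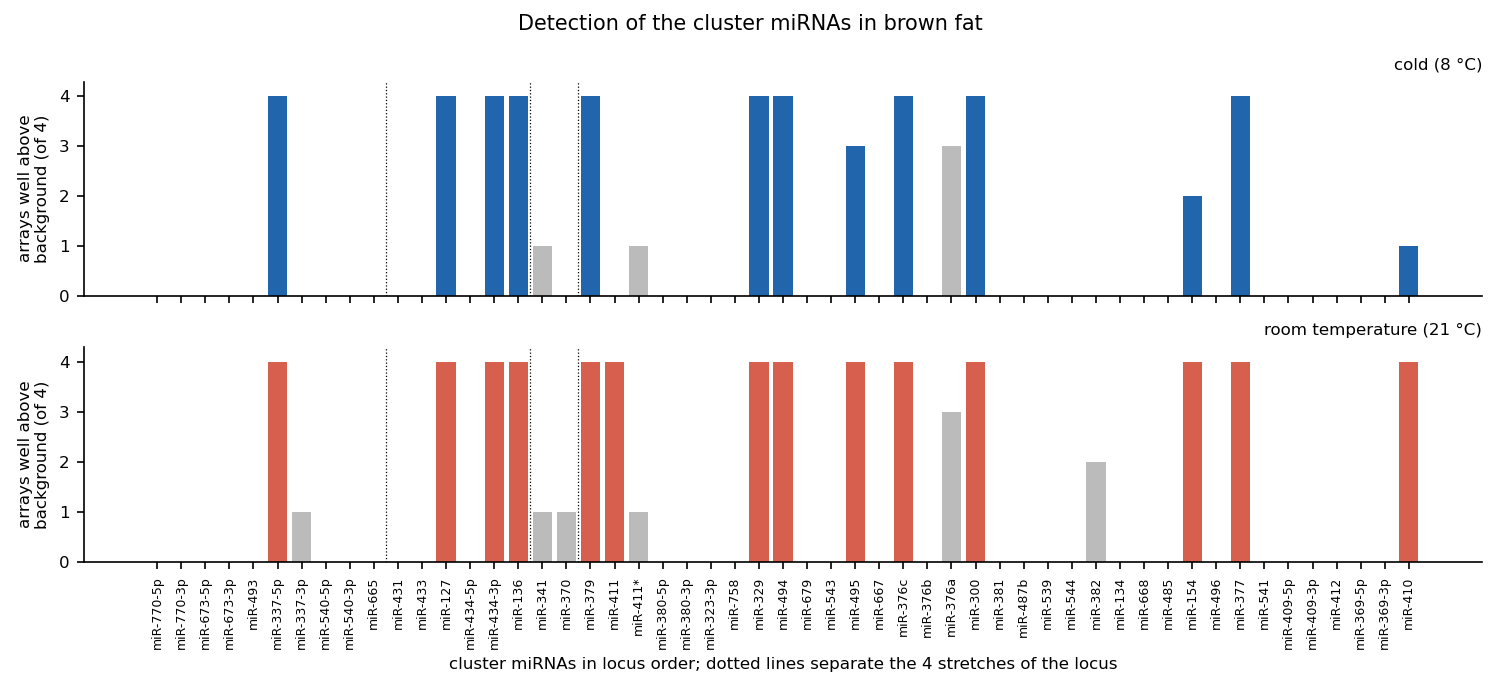
Number of arrays (of 4 in each group) on which each of the 53 cluster miRNAs was well above background, in locus order, cold above and room temperature below. Coloured bars are the 14 miRNAs that passed the filter, grey bars those seen on too few arrays; 33 positions are empty in both panels.

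Fewer members were seen on the cold arrays. On the 4 cold arrays 11, 13, 13 and 14 members were above background, and on the 4 room temperature arrays 14, 15, 16 and 20. Per mouse this was 12.8 ± 0.289 in the cold and 16.8 ± 2.84 at room temperature (mean ± SD, n = 3 mice each), with no overlap between the mice. The same held over all mouse miRNAs, at 182 ± 5.00 against 209 ± 15.3. Array brightness moved with it: the 75th percentile of the bright probes, by which the arrays were scaled, was 574 to 918 units on the cold arrays and 863 to 1408 at room temperature. The part of brightness in these counts was not tested.

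The other 39 members did not pass the filter, which kept a miRNA only if a probe stood well above background across all arrays of the cold group, of the room temperature group or of both. Of these, 33 were above background on no array. In the Mir770 to Mir665 stretch they were both arms of miR-770, miR-673 and miR-540, with miR-493 and miR-665. In the Rtl1 antisense group they were miR-431, miR-433 and miR-434-5p. In the miR-379 to miR-410 array they were miR-380-5p, miR-380-3p, miR-323-3p, miR-758, miR-679, miR-543, miR-667, miR-376b, miR-381, miR-487b, miR-539, miR-544, miR-134, miR-668, miR-485, miR-496, miR-541, miR-409-5p, miR-409-3p, miR-412, miR-369-5p and miR-369-3p. Their brightest probes gave −2.84 to 10.9 units per mouse, whereas the dimmest mouse probe marked as well above background on an array read 7.14 to 12.9 units. At this signal their presence was not detectable, which does not show that they were absent. That includes miR-134, the member best studied in neurons.

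The remaining 6 were seen on some arrays. mmu-miR-376a, from hairpins known for adenosine-to-inosine editing, was above background on 3 arrays of each group, at 13.5, 19.7 and 23.0 units in cold mice 1, 2 and 3 and 11.9, 20.3 and 32.7 units in room temperature mice 4, 5 and 6. The groups overlapped. mmu-miR-382 was above background on 2 room temperature arrays and no cold array. Its signals were 8.50, 12.3 and 11.0 units in the cold and 7.55, 13.3 and 13.3 units at room temperature, again overlapping. mmu-miR-337-3p was above background on 1 array, that of room temperature mouse 6 at 20.2 units. Its other values were 4.67 to 11.0 units.

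mmu-miR-370, known in liver for acting on Cpt1a, an enzyme of fatty acid oxidation, was above background on 1 room temperature array, at 6.18 to 13.1 units over the mice. mmu-miR-341, its neighbour within Rian, was above background on 1 array of each group. Unscaled, miR-341 gave 9.29, 12.5 and 12.3 units in the cold and 7.48, 6.92 and 11.5 units at room temperature, and these overlapped. Divided by array brightness, the values were 13.1, 13.6 and 12.1 against 6.86, 7.26 and 7.42 units, with the cold mice all higher. Whether the groups separated thus depended on the scaling. In a fit with no filter on dim probes miR-341 did not pass (log2 change 0.33, SE 0.062, adjusted p = 0.196 by limma). Its mean level at room temperature was −6.64 there, the floor of the scale, so the size and the SE depend on where the floor was set.

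Where both arms of a hairpin were among the listed members, at most 1 of them was detected throughout. There were 9 such hairpins, of which 6 gave no signal above background from either arm. Arms on the array but outside the list were not counted here. For Mir337 the 5p arm was above background on all 8 arrays and the 3p arm on 1. For Mir434 the 3p arm was above background on all 8 arrays and the 5p arm on none. For Mir411 the arm named miR-411 was above background on the 4 room temperature arrays and no cold array, and mmu-miR-411* on 1 array of each group.

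The arms of Mir411 leaned in opposite directions near background. The brightest probe of miR-411* gave 9.81, 13.8 and 13.8 units in the cold and 4.88, 8.26 and 12.4 units at room temperature, overlapping before scaling. After scaling it gave 14.1, 14.9 and 13.6 units against 4.50, 8.67 and 8.01 units, with no overlap. With no filter on dim probes, in a fit of all 566 miRNAs, 5 passed the threshold (0.883%). Among them miR-411* was the only cluster member (log2 change 0.32, SE 0.020, adjusted p = 0.0191 by limma). All 4 room temperature arrays of that probe sat at the floor of the scale, so the size and the SE depend on where the floor was set.

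The main comparison asked whether the cluster responded to 24 h of cold. None of the 14 tested members differed between the groups at an adjusted p under 0.05 (limma, Benjamini-Hochberg over all 189 miRNAs tested), against 29 of 189 overall (15.3%). At an unadjusted p under 0.05 there were 2 of the 14, miR-434-3p and miR-411, against 32.8% of all 189. Of the 14, 10 were above background on all arrays, and 4 (miR-411, miR-154, miR-495 and miR-410) passed the filter through the room temperature group only. miR-411, above background on no cold array, could enter only by being higher at room temperature, so its p-value here and below is no support for a difference. Of the 14, 8 were lower and 6 higher, with a median log2 change of −0.035. Over all 189, 99 were lower and 90 higher, with a median of −0.022. Levels below are log2 of the signal divided by the array's 75th percentile of bright probes, a change is cold minus room temperature on that scale, and errors are standard errors from limma.

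**Figure D2:**
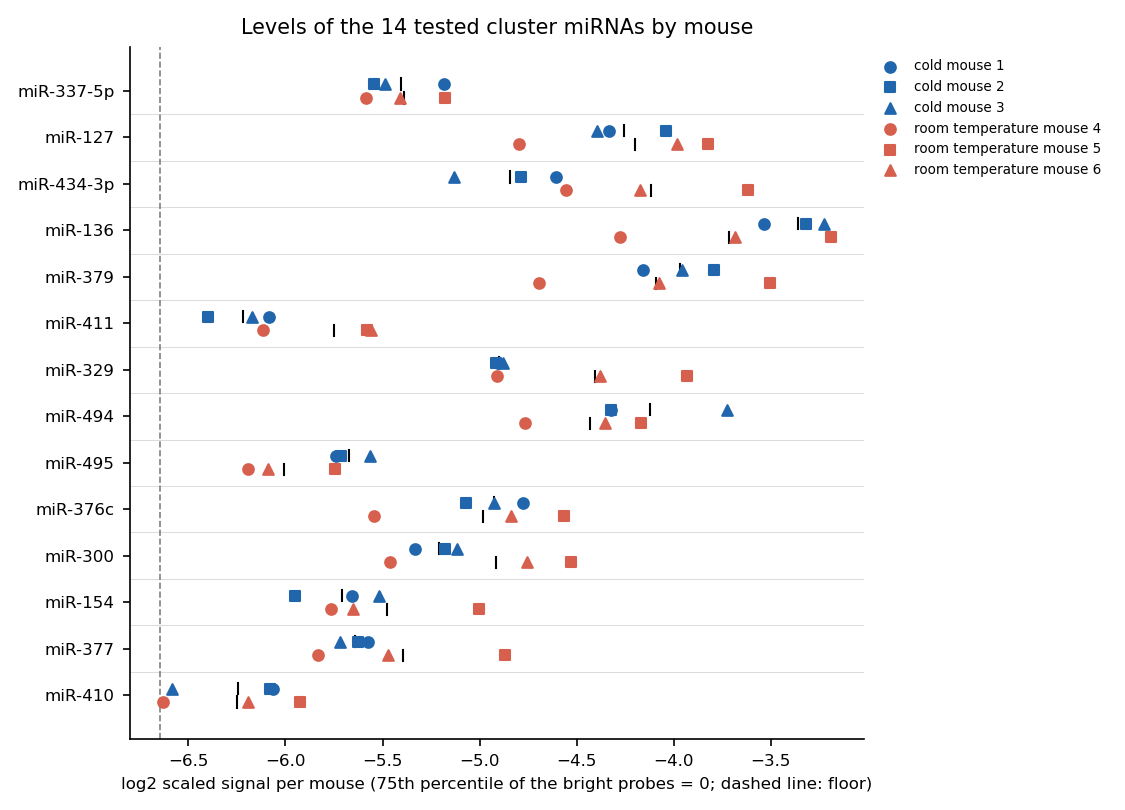
log2 scaled signal of the 14 tested cluster miRNAs in each mouse, in locus order; blue marks are cold mice, red marks room temperature mice and short black lines the group means. The groups overlap for 12 of the 14, and room temperature mouse 4 is the lowest red mark throughout.

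In the Mir770 to Mir665 stretch, mmu-miR-337-5p was the only tested member. It had levels of −5.19, −5.55 and −5.48 in cold mice 1, 2 and 3 and −5.58, −5.18 and −5.41 in room temperature mice 4, 5 and 6. The ranges overlapped almost entirely, with a change of −0.014 ± 0.16 (adjusted p = 0.948, limma). Its 95% interval, −0.39 to 0.36, was among the narrower of the cluster.

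Antisense to Rtl1, mmu-miR-434-3p showed the largest difference of the 14. Its unscaled signal was 25.8, 30.2 and 26.1 units in cold mice 1, 2 and 3 and 42.3, 70.2 and 77.9 units in room temperature mice 4, 5 and 6, a mean of 27.4 ± 2.46 against 63.5 ± 18.7 (SD, n = 3). After scaling, the levels were −4.61, −4.79 and −5.13 against −4.56, −3.62 and −4.17. No cold mouse reached the level of any room temperature mouse, though cold mouse 1 and room temperature mouse 4 were almost level. miR-434-3p was the only member with this separation, against 18.5% of all 189 miRNAs. The change was −0.73 ± 0.25, with a 95% interval from −1.31 to −0.14, an unadjusted p of 0.0213 and an adjusted p of 0.0931 (limma), which missed the threshold. The adjusted p ran from 0.0194 to 0.853 over the alternatives, with values under 0.05 in 6 of 19.

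The dimmer probe of miR-434-3p failed the filter. It was above background on no cold array and 3 room temperature arrays, at 2.86, 9.40 and 10.4 units in the cold and 12.7, 20.0 and 28.5 units at room temperature. Both probes were lower in every cold mouse before scaling. That was not particular to this miRNA, since unscaled all 14 members were lower in the cold and the dim probes of miR-127, miR-337-5p and miR-154 separated the groups in the same way. After scaling the dim probe of miR-434-3p changed by −0.75, and those of miR-127, miR-337-5p and miR-154 by −0.18, −0.29 and −0.25.

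The other Rtl1 antisense miRNAs did not share that difference. mmu-miR-127 had levels of −4.33, −4.04 and −4.40 in the cold and −4.80, −3.82 and −3.98 at room temperature. The cold values lay inside the range of the room temperature mice, and the change was −0.055 ± 0.26 (adjusted p = 0.881, limma). mmu-miR-136 was at −3.54, −3.32 and −3.22 in the cold against −4.27, −3.19 and −3.68. Here too the cold values lay between those of mice 4 and 5, with a change of 0.36 ± 0.26 (adjusted p = 0.379, limma). The difference between miR-434-3p and its neighbours was not tested.

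At the start of the miR-379 to miR-410 array lie mmu-miR-379 and mmu-miR-411, which have the same base at 14 of 21 positions (66.7%) but different seeds, as printed above. miR-379 had levels of −4.16, −3.79 and −3.96 in the cold against −4.69, −3.51 and −4.07 at room temperature. The cold mice lay between mice 4 and 5, with a change of 0.12 ± 0.28 (adjusted p = 0.795, limma). miR-411 had −6.08, −6.40 and −6.17 against −6.12, −5.58 and −5.56, with only mouse 4 reaching into the cold range. miR-411 was well above background on no cold array, so its measured ratio could only be given as a bound. That bound was 1.31-fold higher at room temperature and takes no account of the spread between mice. The fit gave −0.47 ± 0.19 (adjusted p = 0.133, limma), with a 95% interval from −0.90 to −0.036, which came close to no change. The filter kept miR-411 only through the room temperature group, so these values do not establish a difference.

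mmu-miR-329, which acts on dendrite growth in neurons, was flat in the cold mice at −4.91, −4.91 and −4.88. At room temperature it spread from −4.91 in mouse 4 to −4.38 in mouse 6 and −3.93 in mouse 5. The change of −0.49 ± 0.23 did not pass (adjusted p = 0.19, limma). mmu-miR-494 had −4.32, −4.32 and −3.73 in the cold and −4.77, −4.17 and −4.36 at room temperature, overlapping, with a change of 0.31 ± 0.22 (adjusted p = 0.377, limma). It was the only member with 2 probes that passed the filter, and these gave changes of 0.50 and 0.12.

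mmu-miR-495 was the only member with every cold mouse above every room temperature mouse, against 20.1% of all 189. Its levels were −5.74, −5.71 and −5.56 in the cold and −6.19, −5.74 and −6.09 at room temperature. The separation from mouse 5 was smaller than the rounding of these values, and the change was 0.34 ± 0.15 (adjusted p = 0.181, limma). mmu-miR-376c, from the edited miR-376 hairpins, had −4.78, −5.07 and −4.92 against −5.55, −4.57 and −4.84. The cold mice lay inside the room temperature range, with a change of 0.059 ± 0.25 (adjusted p = 0.881, limma).

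mmu-miR-300 had levels of −5.33, −5.18 and −5.12 in the cold against −5.46, −4.53 and −4.76 at room temperature, a change of −0.30 ± 0.24 (adjusted p = 0.423, limma). Within the span of Mirg, mmu-miR-154 had −5.66, −5.95 and −5.52 against −5.76, −5.01 and −5.65, a change of −0.23 ± 0.22 (adjusted p = 0.492, limma). It was above background on 2 of the 4 cold arrays. mmu-miR-377 had −5.58, −5.62 and −5.72 against −5.83, −4.87 and −5.47, a change of −0.25 ± 0.23 (adjusted p = 0.485, limma). For miR-300 and miR-377 the cold mice lay between mice 4 and 6, and for miR-154 the groups overlapped.

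mmu-miR-410, the last member before Dio3, had −6.06, −6.08 and −6.58 in the cold and −6.63, −5.92 and −6.19 at room temperature. The groups overlapped, with a change of 0.0076 ± 0.22 (adjusted p = 0.979, limma). It was above background on 1 of 4 cold arrays and 4 of 4 room temperature arrays, and 1 array was at the floor. By stretch, the median change was −0.055 over the 3 Rtl1 antisense members and −0.11 over the 10 of the miR-379 to miR-410 array, of which 5 were lower and 5 higher.

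**Figure D3:**
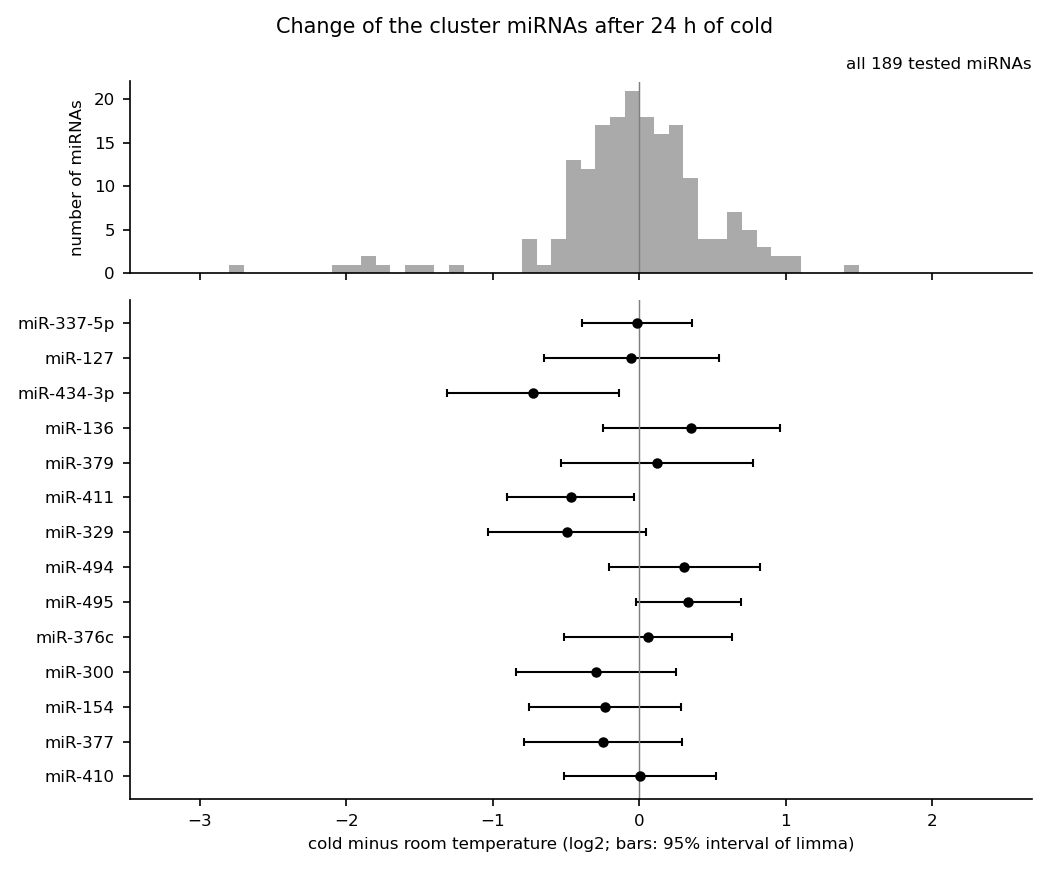
Lower panel: log2 change, cold minus room temperature, of the 14 tested cluster miRNAs with 95% intervals from limma (n = 3 mice a group). Upper panel: number of miRNAs at each change among all 189 tested; 12 of the 14 intervals include 0, and those of miR-434-3p and miR-411 lie below it.

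The intervals were wide beside the changes. Standard errors of the 14 ran from 0.15 to 0.28, with a median of 0.23 against 0.16 over all 189. The median SD between mice of a group was 0.35 for the members and 0.19 over all 189. Repeat arrays of a mouse differed too: the 2 arrays of mouse 1 differed by a median of 0.22 over the members, with 0.74 for miR-136 the most, and those of mouse 4 by 0.21, with 0.70 for miR-376c the most. Over all 189 these medians were 0.20 for mouse 1 and 0.14 for mouse 4.

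Most of the members' spread lay in the room temperature group, and they moved together there. Mouse 4 had the lowest level of the 3 room temperature mice for 14 of 14 members, against 101 of 189 miRNAs in all (53.4%). Mouse 5 had the highest for 13 of 14, miR-411 being the exception, against 115 of 189 (60.8%). The order of mouse 5 depended on the scaling: unscaled, it was the highest for 0 of 14 members and 4 of 189 miRNAs. Mouse 4 was still the lowest unscaled for 14 of 14, against 95 of 189. The median difference between mouse 5 and mouse 4 was 0.93 on the log2 scale over the members, a 1.91-fold difference, and ran from 0.40 for miR-337-5p to 1.19 for miR-379. Over all 189 it was 0.19. Taking arrays singly, both arrays of mouse 4 lay below the arrays of mice 5 and 6 for 12 of 14 members, against 39.7% of all 189.

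After scaling, the cold mice showed no such order. Mice 1, 2 and 3 were the highest for 6, 2 and 6 of the 14 members and the lowest for 4, 6 and 4. This too depended on the scaling. Unscaled, mouse 1 read lowest of the cold mice for every tested member, for miR-127 at 31.0 units against 50.9 and 43.6 in mice 2 and 3. The range of the scaled levels over the 3 mice was wider at room temperature than in the cold for all 14 members, with a median range of 0.93 against 0.34. Among all 189 it was wider at room temperature for 103. The members were taken by name, but the list was chosen with earlier results of these data known. Of the 14, 4 passed the filter through the room temperature group only. No test was made over the list.

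**Figure D4:**
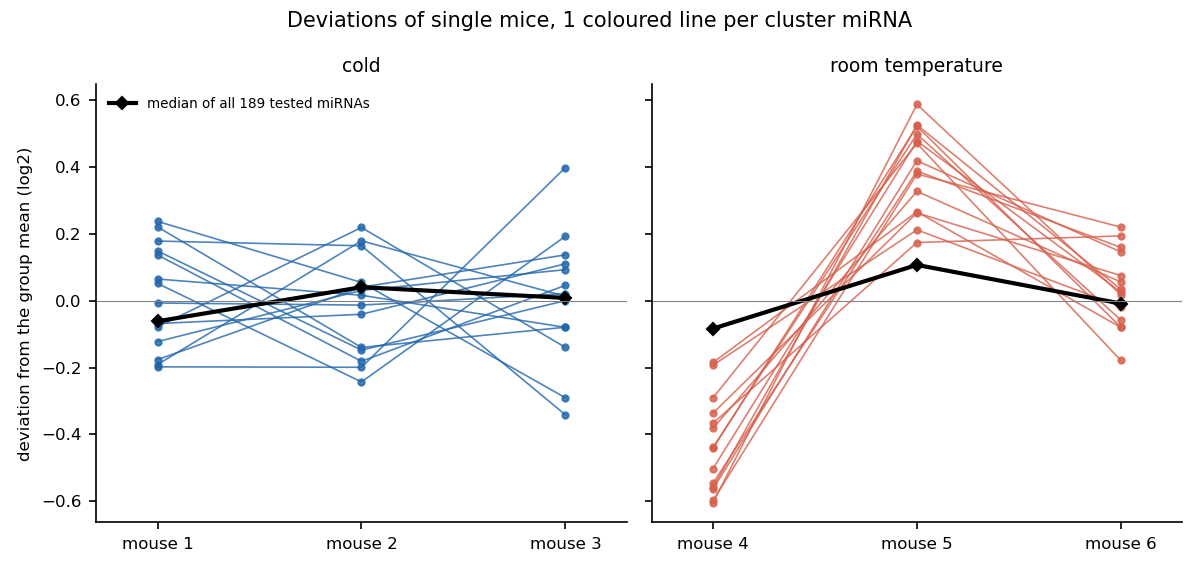
Deviation of each mouse from its group mean (log2) for the 14 tested cluster miRNAs, 1 coloured line each, with the median of all 189 tested miRNAs in black. At room temperature every line runs from a low in mouse 4 to a value above the group mean in mouse 5; in the cold the lines cross.

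As a description over the 6 mice, the deviations from the group means had a positive Pearson correlation in 91 of 91 pairs of members, with a median of 0.78 and a range from 0.034 to 0.98. Over all 17766 pairs of the 189 miRNAs the median was 0.18 and 60.5% were positive. miR-329 followed the others most closely (median 0.88 to the other members) and miR-494 least (0.64). All pairs share the same arrays and their scaling factors. Without mouse 4 the median was 0.45, with 70 positive pairs, and without mouse 5 it was 0.57, with 79. With any 1 of the other 4 mice left out it was between 0.84 and 0.90. The size of the covariation thus rested on mice 4 and 5. It also moved with the scaling, to a median of 0.51 under the all-probe percentile, 0.57 after quantile normalisation, 0.64 after scaling to control RNAs, 0.86 unscaled and 0.90 under normexp.

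Leaving out mouse 4 changed the calls of the cold comparison. Without it, 3 members passed the threshold. miR-329 had a change of −0.74 (adjusted p = 0.0376) and miR-434-3p of −0.95 (adjusted p = 0.0428, both by limma). The third was miR-411 (adjusted p = 0.0386, limma), which the filter let in only through room temperature. The median of the 14 was then −0.29, with 11 lower, beside −0.066 over all 189, of which 12.7% passed. Without mouse 5 the median was 0.11, with 4 lower and 10 higher, and no member passed. The change of miR-329 was then −0.26 and that of miR-434-3p −0.48. No member passed without mouse 1, 2, 3 or 6 either.

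The scaling of the arrays set which members passed. The median change of all 189 miRNAs was −0.022 as reported, −0.095 with the percentile over all probes, −0.16 with scaling to the control RNAs, −0.46 with no scaling and 0.21 with normexp background correction. The members' median moved alongside it, to −0.11, −0.17, −0.47 and 0.25. miR-434-3p passed with the percentile over all probes, with scaling to the control RNAs, with no scaling and under quantile normalisation, with changes from −0.74 to −1.17. Of all 189, 14.8%, 14.8%, 6.88% and 23.8% passed under these settings. miR-434-3p was lower in the cold under all 19 alternatives, down to −0.053 under normexp. Not all of these were separate checks of its direction. The change stayed exactly as reported with the deposited table, the slide block, the intensity trend, the brightest probe and the filter on all arrays. miR-411 passed under quantile normalisation (−0.62, adjusted p = 0.0381) and under scaling to the control RNAs (−0.61, adjusted p = 0.0476), both by limma and both open to the same selection by the filter. It turned to 0.23 under normexp. Normexp added an offset of 50 units, within the 8.70 to 109.6 units that the members' own probes gave.

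**Figure D5:**
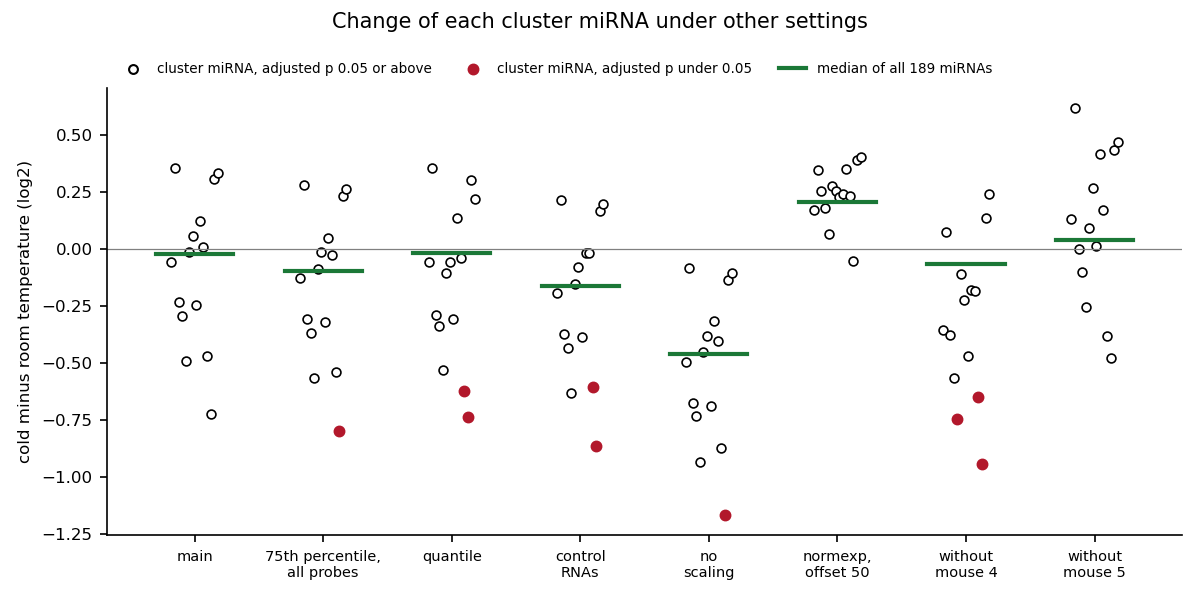
log2 change of each tested cluster miRNA under 8 settings; filled red points have an adjusted p under 0.05 (limma) and green lines mark the median of all 189 miRNAs. The points shift with the green line between scalings, and red points appear at the low end under 5 settings.

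Other mature miRNAs of the locus, outside the 53, were looked up in the same way. Of 19 on the array, 3 were above background on any array, and 1, mmu-miR-299*, passed the filter. It had levels of −3.92, −4.12 and −4.22 in the cold and −4.29, −3.63 and −4.03 at room temperature. Its groups overlapped, with a change of −0.10 ± 0.19 (adjusted p = 0.746, limma). Mouse 4 was again the lowest and mouse 5 the highest of the room temperature mice. The other pair, miR-136* and miR-376b*, were above background on 1 array at room temperature. miR-127*, miR-154*, miR-300* and miR-376c*, second arms of hairpins with a tested member, were above background on no array.

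Markers of other cell types differed between the mice as well, given here as summed scaled signal of each list. All 4 brown adipocyte miRNAs (miR-193b, miR-365, miR-378 and miR-455) were tested, and 2 rose (miR-193b and miR-378), with sums of 12192 to 14162 units in the cold and 10212 to 12892 at room temperature. Of the 6 striated muscle miRNAs 4 were tested and 3 fell in the cold (miR-133a, miR-133b and miR-206), with sums of 3269 to 17216 against 19654 to 28973 units. Among the room temperature mice the scaled muscle sum was highest in mouse 4, at 28973 units, and lowest in mouse 5, at 19654, the reverse of the cluster members. The top mouse was less firm: unscaled, the sum was highest in mouse 6, at 43396 units against 31448 in mouse 4. By fitted level mouse 4 was highest for miR-1 and miR-133b and mouse 6 for miR-133a and miR-206, while mouse 5 was lowest for each. Of the 6 stromal and smooth muscle miRNAs 5 were tested and 3 fell (miR-199a-3p, miR-199b* and miR-214), with sums of 1423 to 1504 against 2022 to 2063 units, and miR-145 was at background throughout. miR-199a-5p of the same list read higher in every cold mouse (0.68, adjusted p = 0.169, limma), and miR-143 was at −0.52 (adjusted p = 0.423, limma). The stromal sums of mice 4 and 5 were 2022 and 2063 units.

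The cluster is abundant in brain, so a neural list was read beside it. The defining neural miRNAs miR-9, miR-124 and miR-138 were above background on no array, while miR-128 and miR-219 were tested and did not pass, with sums of 52.5 to 53.8 units in the cold and 42.7 to 55.1 at room temperature. The single liver miRNA, miR-122, was above background only at room temperature, at 9.98, 271 and 76.7 scaled units in mice 4, 5 and 6, the same order as the cluster members there. It did not pass (adjusted p = 0.115, limma). Endothelial sums were 17740 to 18090 units in the cold against 13073 to 16046. The fitted changes of both endothelial miRNAs went the other way from this sum. They were −0.15 for miR-126-3p (adjusted p = 0.531) and −0.29 for miR-126-5p (adjusted p = 0.525, both by limma). Leukocyte sums were 940 to 1455 against 1600 to 1706, and erythroid sums 17923 to 31971 against 14613 to 18895. None of these 2, 4 and 2 miRNAs passed. The part of these tissue differences in the levels of the cluster was not tested.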

How the data were processed

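miRNAs of brown adipose tissue were measured on 8 1-colour Agilent arrays. The deposited files hold the authors' scanner output as intensity per spot, background-subtracted and linear, with marks for outlier spots and for spots well above background. Per the file headers the software was Agilent Feature Extraction 10.7.3.1, and the submitters' processing notes name 9.5.3.1. The deposited value table held identical intensities (largest difference 0), unscaled and not log-transformed, with column medians of 1.12 to 1.55 units.

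Outlier spots were dropped and the remaining spots averaged per probe. Scaling used the 75th percentile of the 267 miRNA probes (of 1712) that stood above background everywhere. Scaled values had a floor of 0.01 before log2. Probes had to be above background, by more than 0.5 of their spots, throughout 1 group or both. This left 329 probes for 189 mouse miRNAs, each the mean of its probes. Groups of 3 mice were compared with limma 3.58.1 in R 4.3.3, with Benjamini-Hochberg adjustment over all 189, and the fit was tested on simulated data. Other scalings, background corrections, probe summaries, filters, a slide block and leaving out each mouse were tried. A scaled signal is the intensity divided by the array's percentile relative to the mean percentile. For a miRNA seen in only 1 group, the bound compares the bright group's mean with, in each dim array, the larger of the probe's signal and the dimmest signal above background. The number of arrays limits the precision.

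The members and lists were chosen with earlier results of these data known. Every member is accounted for: tested ones with each mouse's value, the others by arrays above background and signal range. The labels did not pair the mice. Normexp was run on median spot signals in place of the mean signals first planned. Arms of old names were assigned from current nomenclature, and no coordinates are given because the array files name no build, so that RefSeq served for names, order and sequences only.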

Additional observations from a re-analysis of the deposited data

How the results depend on the processing

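No paired analysis was possible because the groups share no mouse numbers. The number of members past the threshold was 0 as reported, where 15.3% of all miRNAs passed. It was 1 under the all-probe percentile (14.8% of all miRNAs), unscaled (6.88%), without the filter on dim probes (0.883%) or on the first array of each mouse alone (16.4%). It was 2 after quantile normalisation (23.8%) or scaling to control RNAs (14.8%). It ranged from 0 to 3 with single mice left out, 3 being without mouse 4 (12.7%). The members' median change was −0.47 with no scaling, and −0.29 to 0.11 with single mice left out. The count of members above background on all arrays was 10, but 0 when all spots of a probe had to be marked and 19 when any spot was enough. The count of members lowest in mouse 4, recounted after the data were seen, was 10 of 10 or 11 to 14 of 14 except under normexp, where it was 3 of 14. Over all miRNAs the count ran from 31 of 189 with the all-probe percentile to 113 of 189 with the software's total signal. It was 47 of 189 under normexp, 84 of 158 with the filter on all arrays and 470 of 566 without the filter on dim probes.

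Of 262 recomputed changes of single members 35 reversed. The 262 include the deposited table, the slide block and the intensity trend, which left every member's change exactly as reported and so could not reverse one. The brightest probe likewise changed no member but miR-494, and the filter on all arrays changed none of the members it kept. With no scaling, miR-136 turned to −0.085, miR-376c to −0.38, miR-379 to −0.32, miR-410 to −0.40, miR-494 to −0.13 and miR-495 to −0.11. Under normexp, miR-127 turned to 0.17, miR-154 to 0.26, miR-300 to 0.18, miR-329 to 0.065, miR-337-5p to 0.28, miR-377 to 0.23 and miR-411 to 0.23. miR-376c and miR-410 turned to −0.015 and −0.026 under the all-probe percentile, −0.056 and −0.038 after quantile normalisation and −0.081 and −0.019 after scaling to control RNAs. That last scaling turned miR-379 to −0.017, and the software's total signal turned miR-410 to −0.073.

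With single mice left out, the change ran from −0.35 to 0.13 for miR-127, −0.38 to 0.00035 for miR-154, −0.12 to 0.091 for miR-337-5p, −0.22 to 0.27 for miR-376c, −0.47 to 0.012 for miR-377, −0.18 to 0.42 for miR-379 and −0.18 to 0.18 for miR-410. Without a turn of sign, miR-136 ran from 0.076 (without mouse 4) to 0.62 (without mouse 5), miR-300 from −0.57 (without mouse 4) to −0.10 (without mouse 5), miR-329 from −0.74 (without mouse 4) to −0.26 (without mouse 5), miR-434-3p from −0.95 (without mouse 4) to −0.48 (without mouse 5) and miR-494 from 0.11 (without mouse 3) to 0.44 (without mouse 5), with 0.14 without mouse 4. Slide column as a block, the intensity trend and the deposited table changed no member's call. Signals near background limited what could be seen, and the causes of the reversals were not tested.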
